A study of Mus musculus with 19 samples.

Results

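The miR-148 and miR-152 family consists of the mature microRNAs (miRNAs) mmu-miR-148a, mmu-miR-148b and mmu-miR-152, written below without the mouse prefix. Its members were taken by name from the miRNA annotation of the arrays. They are 3 of the 696 mouse miRNAs on the array and 3 of the 208 that were detected on at least 4 arrays and tested. The data were 19 one-colour arrays, each hybridized with 100 ng of liver RNA from male MutaMouse animals of strain 40.6, a transgenic line that carries a reporter gene for scoring mutations, aged 10 weeks. Every animal received olive oil by gavage each day for 28 days, and liver was removed 3 days after the last dose. The oil was given alone to the controls (5 arrays) and carried dibenz[a,h]anthracene (DB[a,h]A) at 6.25 mg/kg/day in the low dose group (5 arrays), 12.5 mg/kg/day in the middle dose group (4 arrays) and 25 mg/kg/day in the high dose group (5 arrays). DB[a,h]A is a polycyclic aromatic hydrocarbon that activates the aryl hydrocarbon receptor and is metabolized to DNA-reactive products. The series was set up to ask, per its title, if miRNAs in the liver respond to DB[a,h]A.

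An miRNA guides the silencing complex to mRNAs through its seed, bases 2 to 8 from its 5′ end, so miRNAs with the same seed share most of their predicted targets. The family is known for targeting Dnmt1, the maintenance DNA methyltransferase. Its members have also been reported to act on the low density lipoprotein receptor and on the pregnane X receptor, a xenobiotic sensor of hepatocytes. In liver, miR-148a is an abundant hepatocyte miRNA and has been linked to hepatocyte maturation. The arrays carry miRNA probes, so Dnmt1 mRNA and other targets were not analysed here.

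The mature sequences from RefSeq (GRCm38.p6) are shown because they define the family and mark how little separates its members. The seed is in capitals.
miR-148a: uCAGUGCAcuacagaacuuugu
miR-148b: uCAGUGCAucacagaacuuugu
miR-152: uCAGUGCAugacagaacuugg
Among 1679 mature mouse miRNA names in the RefSeq table, these 3 held the seed CAGUGCA and 0 others did. Counted from the 5′ end, miR-148b differs from miR-148a by C9U and U10C, the first base being that of miR-148a. miR-152 differs from miR-148a by C9U, U10G and U20G over the 21 bases it has, and from miR-148b by C10G and U20G. All these differences lie outside the seed. How far a probe for one member captures RNA of another was not tested.

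The members come from separate genes on 3 chromosomes. The mature strand of miR-148a lies at chr6:51269829-51269850 on the minus strand, inside the span of the gene model Gm38821, whose strand was not used here. That of miR-148b lies at chr15:103285185-103285206 on the plus strand, inside the span of Copz1, which codes for a zeta subunit of the coatomer of transport vesicles and is on the same strand. That of miR-152 lies at chr11:96850439-96850459 on the plus strand, inside the span of Copz2, the other zeta subunit gene, also on the same strand. The other arm of the miR-148a hairpin was also on the array, as miR-148a*, and its sequence from RefSeq is shown with its own seed in capitals.
miR-148a*: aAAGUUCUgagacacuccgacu
This strand was detected on 0 of 19 arrays by any of its 4 probes, and its highest background-subtracted signal was 2.49 intensity units.

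A level here is the log2 background-subtracted signal of the brightest probe of an miRNA relative to the 75th percentile of its array, taken over 220 probes well above background on all arrays. Levels of different miRNAs come from different probes and are not compared with each other. A level of -4.79 was the floor. The miR-148a probe gave 372 to 1416 intensity units and was well above background in all spots used on all 19 arrays, and the standard error (SE) of the mean of its replicate spots had a median of 0.02 (log2). The miR-148b probe was well above background on all 19 arrays at 10.1 to 37.3 intensity units. The miR-152 probe gave 8.02 to 36.6 units and was well above background on 5 of 5 control, 5 of 5 low dose, 3 of 4 middle dose and 3 of 5 high dose arrays. Its levels in the middle and high dose groups therefore include 3 values close to background. The scanner software still flagged miR-152 as detected on all 19 arrays. Over all miRNAs, the median number detected per array was 204 in controls and 201, 168.5 and 171 in order of dose. There were 0 saturated spots for any member.

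Array signal and layout moved with dose. The 75th percentile signal was 219 to 491 intensity units in controls, 219 to 372 at the low dose, 176 to 304 for the middle dose, and 139 to 226 for the high dose. The labelling spike-in was 11.97 to 12.63 (log2) in controls and 11.29 to 11.78 at the high dose. The arrays lay on 3 slides that each held all groups, but 4 of 5 controls were in row 1 of a slide and 5 of 5 high dose arrays in row 2. Among liver markers, miR-122, the dominant hepatocyte miRNA, had a control level of 6.53 ± 0.17 (SD, n = 5) and 0 of 3 hepatocyte markers passed at any dose, by limma with Benjamini-Hochberg adjustment or at an unadjusted p under 0.05. Of 5 leukocyte markers, 3 were tested and miR-150 and miR-155 were detected on 0 arrays. By limma miR-142-3p changed by 0.19, 0.20 and 0.12 (log2) in order of dose and miR-142-5p by 0.26, 0.01 and -0.08. Neither passed at any dose. The marker miR-223 passed at every dose and was higher by 0.37, 0.48 and 0.39 in order of dose, but unscaled it was at -0.09 and -0.32 at the upper doses. Its call was lost at every dose unscaled, with the all-probe percentile, quantile normalization and spike-in scaling (adjusted p of 0.198 to 1 by limma), and at the low dose in the deposited value table (adjusted p = 0.316). The summed leukocyte level ran from -0.04 to 0.38 in controls, 0.38 to 0.49 at the low dose, 0.21 to 0.57 at the middle dose and 0.13 to 0.61 at the high dose. The part of these shifts in the members' values was not tested unless a value below says so. In whole liver, fewer cells of a type and less RNA per cell cannot be told apart.

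miR-148a, whose probe was well above background everywhere, was at -0.15 and -0.18 log2 units from control at the middle and high doses, values that did not pass the test. Its level on the control arrays was 1.70, 1.44, 1.60, 1.51 and 1.53. On the low dose arrays it was 1.75, 1.45, 1.57, 1.46 and 1.56. On the middle dose arrays it was 1.48, 1.59, 1.42 and 1.27, and on the high dose arrays 1.55, 1.23, 1.38, 1.42 and 1.43. The low dose arrays overlapped the controls, whereas 2 of 4 middle dose arrays and 4 of 5 high dose arrays lay below every control. No group separated fully from the controls. Among all tested miRNAs, 0.962% had every middle dose array and 0% every high dose array below all controls. These shares are for full separation, and the shares with 2 of 4 or 4 of 5 arrays below were not determined. These levels are from the brightest probe. The other miR-148a probe was also well above background on all 19 arrays. Its controls went down to 0.99, and its high dose arrays were at 1.14, 0.85, 1.00, 0.74 and 1.01, so fewer lay below every control. Its middle dose arrays were at 1.03, 1.15, 0.85 and 0.85, and a low dose array lay at 0.92. Its limma changes were -0.15 at both upper doses and did not pass.

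The mean level of miR-148a was 1.55 ± 0.10 (SD, n = 5) without DB[a,h]A, against 1.56 ± 0.12 (SD, n = 5) in the low dose, 1.44 ± 0.13 (SD, n = 4) in the middle dose and 1.40 ± 0.11 (SD, n = 5) in the high dose group. With the slide as a block, limma gave a log2 change of 0.01 (SE 0.06, adjusted p = 1) at the low dose. The change was -0.15 (SE 0.07, adjusted p = 0.189) at the middle dose, which is 0.899 times control with a 95% interval of 0.811 to 0.997. At the high dose it was -0.18 (SE 0.07, adjusted p = 0.103), which is 0.883 times control with an interval of 0.801 to 0.975. Over the dose in mg/kg/day the slope by limma was -0.00801 log2 units per mg/kg/day (SE 0.00258, adjusted p = 0.0883). By the size of p, this slope was number 16 of the 208 tested miRNAs. An F test across the 4 groups gave an adjusted p of 0.153 for miR-148a, and the average of all 3 doses minus control was -0.11 (SE 0.05, adjusted p = 0.224) by limma.

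**Figure D1:**
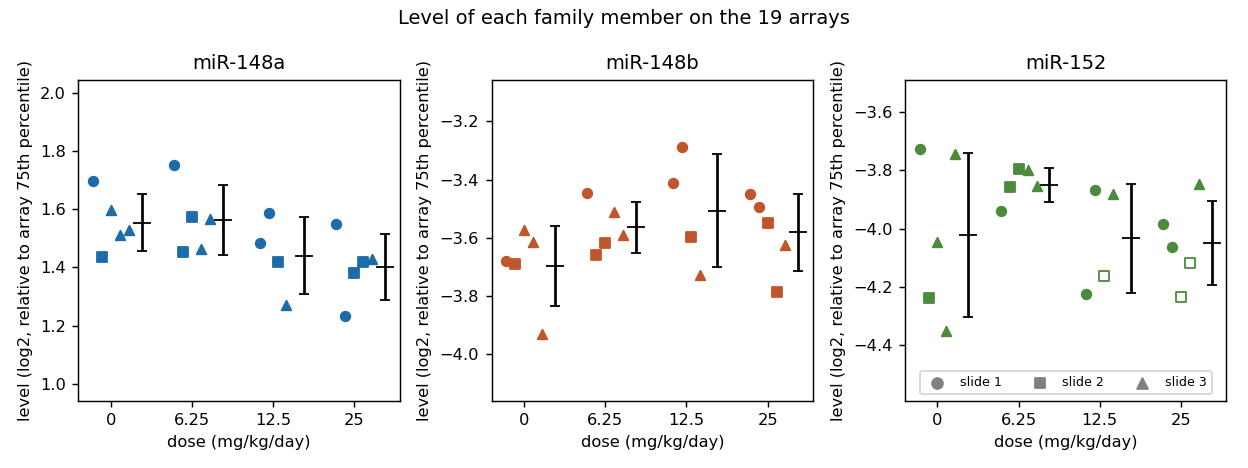
Level of each family member on every array by dose of DB[a,h]A in mg/kg/day, as log2 signal relative to the array's 75th percentile; each panel spans the same range of 1.1 log2 units, point shapes give the slide, open points are arrays on which the probe was not well above background, and bars are mean ± SD. For the brightest miR-148a probe, 4 of 5 high dose arrays lie below every control array, a count whose share over all tested miRNAs was not determined. The miR-148b and miR-152 groups overlap the controls at every dose.

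Relative to the controls on its own slide, miR-148a was lower on 4 of 4 middle dose arrays and 5 of 5 high dose arrays, and on 1 of 5 low dose arrays. The share of tested miRNAs with such counts was not determined. By the other miR-148a probe, high dose replicate 15 (1.00) was above the slide 2 control (0.99). By the brightest probe, the high dose difference was -0.31 on slide 1, -0.04 on slide 2 and -0.12 on slide 3. The middle dose difference was -0.16, -0.02 and -0.27. The sign was thus the same on each slide and the size was not. Slides 1 and 2 held 1 control array each, at 1.70 and 1.44, the highest and lowest control levels. The slide 2 differences were smaller than the limma SE of 0.07. With slide and row both as blocks, the limma change was -0.19 (middle dose, adjusted p = 0.271) and -0.23 (high dose, adjusted p = 0.359). Scaling by the labelling spike-in in place of the 75th percentile gave -0.36 and -0.11 (adjusted p = 0.760 and 0.894 by limma). The deposited value table gave -0.14 and -0.08 (adjusted p = 0.227 and 0.408 by limma). Without the slide in the fit, limma gave -0.11 and -0.15 (adjusted p = 0.336 and 0.188). Left unscaled, miR-148a passed at the high dose (-0.89, adjusted p = 0.0172), and scaled by the percentile over all probes it passed at the middle dose (-0.64, adjusted p = 0.0181), both by limma. Those settings moved many miRNAs: unscaled, 69 of 208 passed at the high dose and the median of all tested was -0.47, and with all probes in the percentile 34 passed at the middle dose and the median was -0.15. Relative to these medians miR-148a was at -0.41 and -0.49. It also passed at the middle dose once high dose replicate 8, its lowest array, was left out (-0.17, adjusted p = 0.0432). It stayed below control at both doses in all 16 other settings and in all 19 fits that left out 1 array. A higher floor and other detection filters left its level as it was, so those settings repeat the reported changes.

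miR-148b was above the controls of the same slide in 12 of 14 exposed livers, by less than the test could call. Slides 1 and 2 held 1 control array each, so the 14 comparisons were not independent. The share of tested miRNAs with 12 of 14 was not determined, and the median change over all tested miRNAs was also upward at each dose. Its control arrays were at -3.68, -3.69, -3.57, -3.62 and -3.93. The low dose arrays were at -3.44, -3.66, -3.62, -3.51 and -3.59, the middle dose arrays at -3.41, -3.29, -3.60 and -3.73, and the high dose arrays at -3.45, -3.49, -3.55, -3.79 and -3.63. The groups overlapped at every dose, with 2 of 5, 2 of 4 and 3 of 5 exposed arrays above every control. The shares of tested miRNAs with these counts were not determined. Compared with the controls of the same slide, miR-148b was higher on 5 of 5 low dose, 3 of 4 middle dose and 4 of 5 high dose arrays.

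The mean level of miR-148b was -3.70 ± 0.14 (SD, n = 5) without DB[a,h]A, against -3.56 ± 0.09 (SD, n = 5) in the low dose, -3.51 ± 0.19 (SD, n = 4) in the middle dose and -3.58 ± 0.13 (SD, n = 5) in the high dose group. The limma changes were 0.14 (SE 0.07, adjusted p = 0.508), 0.14 (SE 0.08, adjusted p = 0.265) and 0.09 (SE 0.07, adjusted p = 0.518). These differ little from the median change over all 208 tested miRNAs, which was 0.07, 0.11 and 0.06 in order of dose. The direction rested on the scaling: the high dose change was -0.18 with all probes in the percentile, -0.23 after quantile normalization, -0.62 unscaled and -0.11 in the authors' deposited value table.

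Among the members, miR-152 showed the widest spread over control arrays, and as reported its changes at the middle and high doses were near 0. Its control arrays were at -3.73, -4.24, -4.05, -4.35 and -3.74. The low dose arrays lay close together at -3.94, -3.86, -3.80, -3.80 and -3.85. The middle dose arrays were at -4.22, -3.87, -4.16 and -3.88, and the high dose arrays at -3.98, -4.06, -4.23, -4.12 and -3.85. All exposed arrays fell within the range of the controls.

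The mean level of miR-152 was -4.02 ± 0.28 (SD, n = 5) without DB[a,h]A, against -3.85 ± 0.06 (SD, n = 5) in the low dose, -4.03 ± 0.19 (SD, n = 4) in the middle dose and -4.05 ± 0.14 (SD, n = 5) in the high dose group. The limma change was 0.20 (SE 0.12, adjusted p = 0.561) at the low dose, -0.00 (SE 0.13, adjusted p = 1) at the middle dose and 0.00 (SE 0.12, adjusted p = 1) at the high dose. The 95% interval at the high dose, 0.839 to 1.20 times control, was wider than that of miR-148a. The value near 0 rested on the scaling: the middle and high dose changes were -0.49 and -0.26 with all probes in the percentile, -0.35 and -0.30 after quantile normalization, -0.58 and -0.69 unscaled, and -0.47 and -0.30 from the total gene signal, none of which passed. On slide 1 every dose was below its single control array (-0.21, -0.32 and -0.29), and on slides 2 and 3 every dose was above the controls, by 0.06 to 0.41.

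Across the family, 0 of 3 members passed at any dose by limma at an adjusted p under 0.05, and at an unadjusted p under 0.05 the counts were 0, 1 and 1 in order of dose, in both cases miR-148a. Over all tested miRNAs, 4.33, 5.77 and 2.4% passed in the same order, and all those calls were higher. Unadjusted and lower, as miR-148a was, were 3.37% of tested miRNAs in the middle and 5.77% in the high dose group. In the F test, the slope over dose and the average of the doses, 0 of 3 members passed in limma against 0.962, 0.962 and 8.17% of all tested. Unadjusted, 1 member (miR-148a) had a p under 0.05 in the F test, as did 25% of all tested, and in the slope, where 6.25% of all tested had such a p and were lower.

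**Figure D2:**
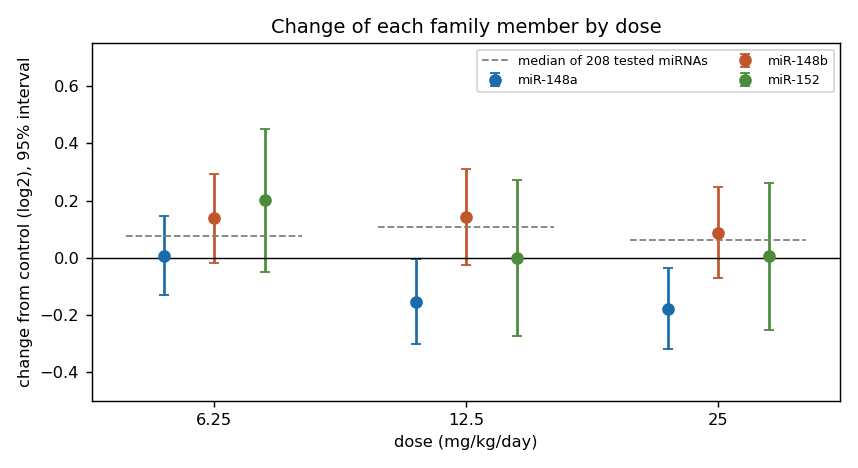
Log2 change of each family member from control at 6.25, 12.5 and 25 mg/kg/day, with 95% intervals from limma; dashed lines are the median change of the 208 tested miRNAs. miR-148a is at 0.01, -0.15 and -0.18, below the dashed line at each dose, and the intervals of miR-148b and miR-152 include 0 at each dose.

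Because the members share a seed, their balance was examined as the difference of 2 levels within an array. This difference does not depend on a factor that multiplies the whole array. Such a difference also carries the unequal efficiency of the 2 probes, so only its change between groups is read. The largest change was in miR-148a minus miR-148b at the middle dose. This difference was 5.38, 5.13, 5.17, 5.12 and 5.46 on the control arrays and 4.90, 4.88, 5.02 and 5.00 on the middle dose arrays. It was 5.20, 5.11, 5.19, 4.97 and 5.15 at the low dose and 5.00, 4.73, 4.93, 5.21 and 5.05 at the high dose. All 4 middle dose arrays and 4 of 5 high dose arrays lay below every control.

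The mean of miR-148a minus miR-148b was 5.25 ± 0.16 (SD, n = 5) without DB[a,h]A, 4.95 ± 0.07 (SD, n = 4) in the middle dose and 4.98 ± 0.18 (SD, n = 5) in the high dose group. The middle dose change was -0.30, with a two-sided exact permutation p of 0.00794, the smallest that 126 arrangements can give, and an adjusted p of 0.0714 over 9 comparisons. The high dose change was -0.27 (exact permutation p = 0.0397, adjusted p = 0.179), and the low dose change was -0.13 (exact permutation p = 0.230, adjusted p = 0.560). Of the 21528 possible pairs of tested miRNAs, 7.42% had all middle dose arrays on 1 side of all controls, and 3.15 and 7.61% did so at the low and high doses. The share with 4 of 5 high dose arrays on 1 side was not determined. Permuted within slides, the middle dose change was -0.30 and its exact permutation p was 0.0417, no smaller value being possible with 24 arrangements (adjusted p = 0.375). Without high dose replicate 16, the array with the highest high dose difference, the adjusted exact permutation p was 0.0357 at both these doses. In the deposited value table these changes were -0.04 and 0.01, so the table does not show this shift. Quantile normalization is not a single factor per array, and the within-array tests were not repeated under it. There limma gave -0.17 and -0.14 for miR-148a and -0.24 and -0.23 for miR-148b at the middle and high doses. Under it miR-148b thus fell further than miR-148a, the reverse of the reported shift.

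**Figure D3:**
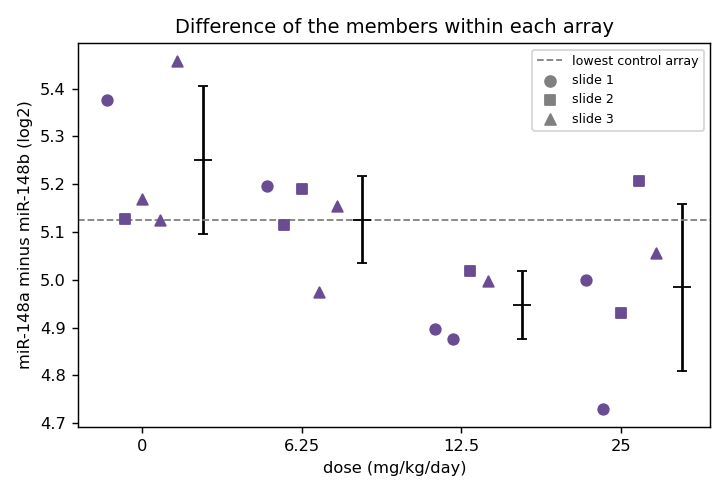
Difference of the log2 levels of miR-148a and miR-148b within each array, by dose in mg/kg/day; point shapes give the slide, bars are mean ± SD, and the dashed line marks the lowest control array. All 4 middle dose arrays lie between 4.88 and 5.02, below the control range of 5.12 to 5.46, and 1 high dose array, at 5.21, lies within it.

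The other pairs moved less. miR-148a minus miR-152 changed by -0.16, -0.10 and -0.12 in order of dose (adjusted exact permutation p of 0.560, 0.607 and 0.560). miR-148b minus miR-152 changed by -0.04, 0.20 and 0.14 (adjusted exact permutation p of 0.841, 0.560 and 0.602). In all, 0 of 9 comparisons passed after adjustment and 2 had an unadjusted exact permutation p under 0.05, both in miR-148a minus miR-148b. None of these tests shows that the members respond alike, since the SDs of the differences with miR-152 among controls were 0.23 and 0.38.

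Variation between livers of the same group was compared across the family after the slide and dose effects were removed, over all 19 arrays. miR-148a and miR-148b correlated at r = 0.15 (Spearman's rho 0.24), with permutation p adjusted over 3 pairs of 0.541 and 0.413. miR-148a and miR-152 correlated at r = 0.16 (rho 0.20, adjusted permutation p of 0.541 and 0.413). miR-148b and miR-152 ran opposite ways, with r = -0.54 (permutation p = 0.0179, adjusted 0.0537) and rho = -0.41 (permutation p = 0.0880, adjusted 0.264).

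The opposite course of miR-148b and miR-152 had an r of -0.15, -0.60 and -0.73 within slides 1, 2 and 3, and of -0.39 without the 2 arrays farthest from the median, middle dose replicate 20 and control replicate 22. It turned with the scaling: r was 0.46 with the percentile over all probes and 0.80 both unscaled and scaled by the labelling spike-in. Under those settings miR-148a correlated with miR-148b at 0.75 to 0.93 and with miR-152 at 0.73 to 0.93. The members share each array's scaling factor, so these correlations cannot be read without it.

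**Figure D4:**
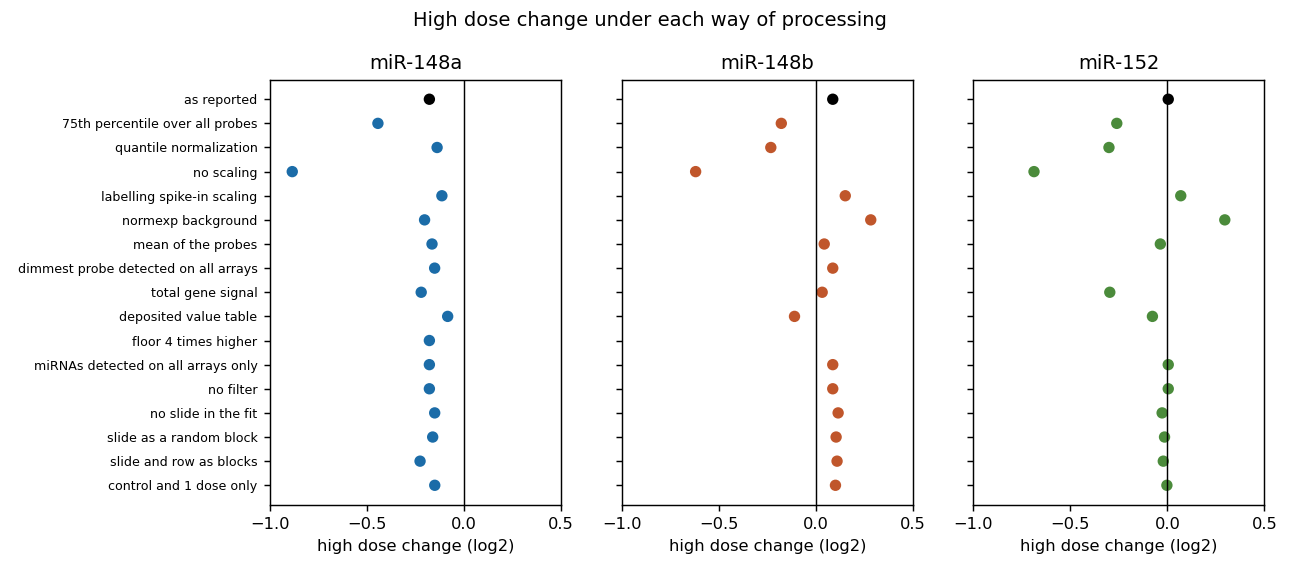
High dose change from control (log2) of each family member under each way of processing the arrays, with the reported setting in black. miR-148a is below 0 under all settings, from -0.89 to -0.08; miR-148b runs from -0.62 to 0.28 and miR-152 from -0.69 to 0.30, on both sides of 0; a missing point is a setting that gives no value for that member.

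By the same deviations, the tested miRNAs most like miR-148a were let-7g (r = 0.86), let-7f (r = 0.81) and miR-350 (r = 0.77). Those most like miR-148b were miR-709 (r = 0.61), miR-22* (r = 0.60) and miR-26b (r = 0.58), and those most like miR-152 were miR-19b (r = 0.72), miR-20b (r = 0.66) and miR-146a (r = 0.65). These values describe 19 arrays that share 1 scaling rule and the highest of 207 such values each, so they carry no test. No family member was among the 3 most like another.

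Other miRNAs reported to target DNA methyltransferases were set beside the family as a list of 9: miR-29a, miR-29b and miR-29c, which act on Dnmt3a and Dnmt3b, miR-101a, miR-101b, miR-126-3p, miR-143, miR-185 and miR-342-3p. All 9 were tested, and 1 rose at the low dose while 0 fell. That was miR-126-3p, an miRNA of endothelium, with a change of 0.29 (SE 0.07, adjusted p = 0.0268 by limma). It was above control under the other scalings too, by 0.11 to 0.23, and passed in the deposited value table (adjusted p = 0.0291 by limma) but not with quantile normalization (adjusted p = 0.0940), the all-probe percentile, the spike-in or no scaling (adjusted p = 1). At the other doses 0 of 9 passed by limma; unadjusted, 1 was higher and 3 lower at the middle dose, and 0 higher and 3 lower at the high dose. Over all tested miRNAs 21.6% were higher and 3.37% lower at the middle dose by that measure, and 19.7% higher and 5.77% lower at the high dose. The median change of the list was 0.02, -0.02 and -0.02 in order of dose, against 0.07, 0.11 and 0.06 over all tested miRNAs.

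At the middle and high doses, which are given in that order, the list included miR-101a and miR-101b, which differ from the family in seed and are reported to act on Dnmt3a. miR-101a was at -0.27 (SE 0.08, adjusted p = 0.0811 by limma) and -0.22 (SE 0.08, adjusted p = 0.103) at these doses. miR-101b was at -0.30 (SE 0.11, adjusted p = 0.111 by limma) and -0.29 (SE 0.10, adjusted p = 0.103). miR-29a was at -0.07 (adjusted p = 0.474 by limma) and -0.17 (adjusted p = 0.100). miR-29b was at -0.16 (adjusted p = 0.111 by limma) and -0.11 (adjusted p = 0.259), and miR-29c at 0.00 and -0.02. miR-143 was at 0.83 (SE 0.44, adjusted p = 0.261 by limma) and 0.10 (SE 0.42), the widest errors of the list. miR-185, reported to act on Dnmt1, was at -0.02 and -0.01, and miR-342-3p, also reported for Dnmt1, at 0.06 and 0.16. None of these values passed the test, and miR-148a lies among them in size at both doses.

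**Figure D5:**
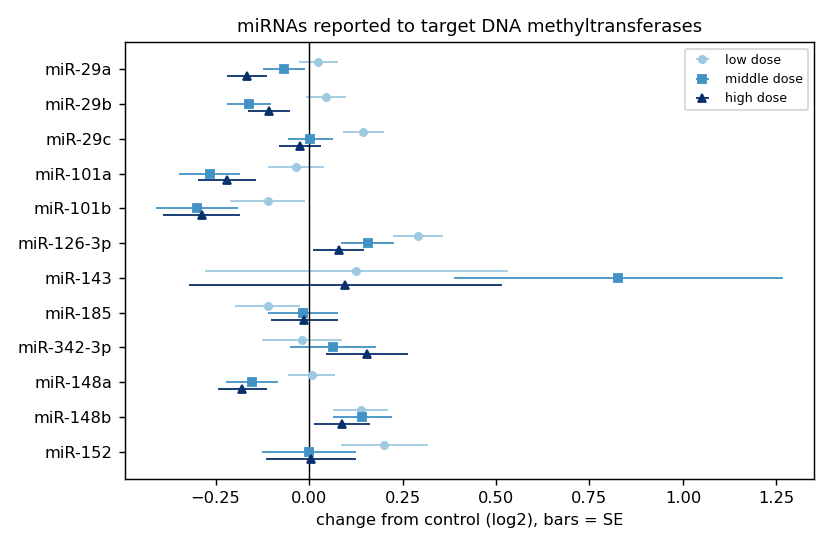
Log2 change from control at the low, middle and high doses, with SE bars from limma, for 9 other miRNAs reported to target DNA methyltransferases and, at the bottom, the 3 family members. At the high dose miR-29a, miR-101a, miR-101b and miR-148a lie at -0.17, -0.22, -0.29 and -0.18; only miR-126-3p at the low dose passed the test.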

How the data were processed

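Labels give no litter, and each array was taken as 1 liver sample; p-values measure the spread between these samples. Agilent Feature Extraction 10.7.3.1, per the file headers, subtracted background and gave 1 intensity for each spot, not scaled across arrays. The authors' deposited value table holds 692 miRNAs, read here as log2 values with column medians of 5.04 to 5.06; how it was normalized is not stated in the labels or headers. Its columns correlated with the log2 scanner signal at r of 0.876 to 0.905 over 636 matched names. It served as an alternative.

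After control and outlier spots were dropped, the spots of each of 1937 probes were averaged. Signals were scaled to the 75th percentile of 220 probes well above background on all arrays, values under -4.79 (log2) were raised to it, and an miRNA took its brightest probe. The model in limma 3.58.1 (R 4.3.3) had dose group and slide as terms and 1 spread for all groups, with Benjamini-Hochberg adjustment over 208 miRNAs detected on at least 4 arrays. Differences within arrays used exact permutation tests, and correlations 100000 permutations. The number of arrays limits the precision. The procedure was tested on simulated data with noise drawn independently for each miRNA. Variation that the miRNAs of an array share was not covered by it. Alternatives covered scaling, background, probe summary, floor, detection filter, slide and row, and each array left out.

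Named were the 3 members, the passenger strand on the array, the hepatocyte marker miR-122, the 3 miRNAs most like each member, and 9 other miRNAs reported to target DNA methyltransferases; miR-223, miR-150 and miR-155 come from the leukocyte marker list. Members and lists were chosen with earlier results of these data known.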

Additional observations from a re-analysis of the deposited data

How the results depend on the processing

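Tests of members were repeated under each alternative that gave a value. The within-array comparisons were repeated under 4 other settings and with each array left out. Counting the fits with 1 array left out, most results kept their direction and their side of the threshold. Some directions did not hold across the other settings. The low dose change of miR-148a, above 0 as reported, was below 0 in 7 of 16. That of miR-148b at the middle dose was below 0 in 6 of 15, and that of miR-152 at the high dose in 10 of 14. miR-148a stayed below control at the middle and high doses under all 16 other settings. Of these, a higher floor and other detection filters could not change its level. The sign of miR-148b and miR-152 depended on the scaling. The number of arrays, the single usable probe of miR-148b and, for miR-152, signal close to background limit what can be read. The cause of the changes below was not tested.

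With the 75th percentile taken over all probes, 1 member (miR-148a) passed at the middle dose (-0.64) and in the F test (F = 10.4). Its low dose change turned to -0.069, miR-148b to -0.35 (middle dose) and -0.18 (high dose), and miR-152 to -0.26 at the high dose. The correlations became 0.75 for miR-148a with miR-148b, 0.73 for miR-148a with miR-152 and 0.46 for miR-148b with miR-152. With no scaling, 1 member passed at the high dose (miR-148a, -0.89) and 3 in the trend (miR-148a at -0.0367 per mg/kg/day), where 69 and 104 of all 208 tested passed. Low dose changes turned to -0.17 for miR-148a and -0.042 for miR-148b, miR-148b to -0.43 and -0.62 at the next doses, and miR-152 to -0.69 at the high dose; the same correlations were 0.93, 0.92 and 0.80. Labelling spike-in scaling turned miR-148a to -0.066 at the low dose and miR-148b to -0.064 at the middle dose, with correlations of 0.90, 0.93 and 0.80. Quantile normalization gave -0.12 for miR-148a at the low dose, -0.24 and -0.23 for miR-148b at the middle and high doses, and -0.30 for miR-152 at the high dose.

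The deposited value table gave -0.061 for miR-148a and -0.055 for miR-148b at the low dose, -0.090 for miR-148b at the middle dose, and -0.11 for miR-148b and -0.077 for miR-152 at the high dose. It turned the high dose change of miR-148a minus miR-148b to 0.012 and of miR-148a minus miR-152 to 0.032. Total gene signal gave -0.081 for miR-148a at the low dose, -0.0068 for miR-148b at the middle dose and -0.30 for miR-152 at the high dose. Normexp background correction, chosen in its form after the files were seen, gave -0.015 for miR-148a at the low dose and 0.59 for miR-152 at the middle dose. Under it 3 of 9 within-array comparisons passed: miR-148a minus miR-148b at the middle (-1.11) and high (-0.67) doses and miR-148a minus miR-152 at the high dose (-0.67). There miR-148b minus miR-152 turned to -0.0081 (middle dose) and -0.0015 (high dose). The high dose change of miR-152, near 0, was -0.036 with the mean of its probes, -0.027 with no slide term, -0.014 with the slide as a random block, -0.021 with slide and row as blocks and -0.0022 with control and the high dose alone.

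Slide 1 alone moved miR-148a to -0.31 and miR-152 to -0.29 at the high dose, miR-148b to 0.33 and miR-152 to -0.32 at the middle dose, and miR-152 to -0.21 at the low dose. Slide 2 alone gave -0.036 at the high and -0.017 at the middle dose for miR-148a, and slide 3 alone gave -0.27 for miR-148a and -0.021 for miR-148b at the middle dose. Without the 2 arrays farthest from the median, miR-148a and miR-148b correlated at -0.0024.

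Leaving out each array in turn, miR-148a ran from -0.030 to 0.030 at the low and -0.19 to -0.10 at the middle dose, where 0 to 1 members passed. miR-152 ran from -0.079 to 0.12 at the middle and -0.071 to 0.12 at the high dose. Of the 9 within-array comparisons 0 to 2 passed: miR-148a minus miR-148b ran from -0.34 to -0.25 at the middle and -0.32 to -0.20 at the high dose. miR-148a minus miR-152 ran from -0.18 to 0.0054 at the middle dose, and miR-148b minus miR-152 from -0.17 to 0.063 at the low dose.

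Over all tested miRNAs, 9, 12 and 5 passed at the 3 doses as reported. Other settings gave 0 to 9, 1 to 34 and 1 to 69, and leaving out an array gave 0 to 13, 2 to 36 and 1 to 23. For the F test, trend and average of doses, 2, 2 and 17 passed, against 1 to 21, 1 to 104 and 1 to 19 under other settings and 1 to 11, 2 to 17 and 2 to 35 with an array left out. A floor 4 times higher put miR-148b and miR-152 at the floor on every array, and neither miR-152 probe is well above background on all arrays, which the dimmest-probe summary needs, so these alternatives give no value there. For miR-148b the dimmest-probe summary repeats the reported probe. No paired analysis was possible because array numbers in the labels are not shared between groups.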
